A study of Mus musculus with 16 samples.

Results

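The GIMAP genes (GTPases of the immunity-associated protein family) were followed in mouse T cells stimulated for 24 h with or without the kinase Lck. All 8 genes listed for the family, Gimap1 and Gimap3 to Gimap9, were found on the array by their symbols, out of 22340 genes named on it. They had 10 probes in all, and each gene was read from its brightest probe. GIMAP proteins share a GTP-binding domain and are found mainly in lymphocytes, where several of them sit on intracellular membranes such as those of lysosomes, mitochondria or the endoplasmic reticulum. Mice and rats that lack functional Gimap5 lose their peripheral T cells, and other members have been tied to lymphocyte survival and autophagy. The genes lie side by side in a single cluster.

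RNA came from lymph node T lymphocytes of mice labelled OT-1het, Rag-/-, which are called WT here, or OT-1het, Rag-/-, Lck-/-. OT-1 is a T cell receptor transgene that recognises the ovalbumin peptide SIINFEKL, loss of Rag leaves no other rearranged receptors, and Lck is the tyrosine kinase that first phosphorylates the triggered receptor. Both genotypes therefore carried the transgene and the Rag deletion, and both received 100 nM SIINFEKL for 24 h and 100 µg/ml cycloheximide, which holds ribosomes on mRNA, for 10 min. No unstimulated group was analysed here. Lysates were separated on 10 to 50% sucrose gradients, of which fractions 1 to 5 gave a sub-polysomal pool and fractions 6 to 10 a polysomal pool, and 1.5 µl of each pool was labelled, a fixed volume with no mass given. Each of 4 WT and 4 Lck-/- extracts was hybridised on 2 arrays with the dyes swapped, 16 arrays on 2 slides in all, and the design text calls the 4 extracts of a genotype biological replicates. The labels do not give the age of the mice or the number pooled.

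The quantities below were compared on a log2 scale. The ratio is polysomal over sub-polysomal signal after loess normalization, which centres each array at each brightness. It therefore ranks a gene's polysome loading against that of genes of like brightness on the array. The polysomal and sub-polysomal levels are scaled intensities of each pool, and their mean stands for the overall abundance, in which fewer T cells and less RNA per cell cannot be told apart. Levels of different genes come from different probes and were not set against each other. Called means a limma adjusted p (Benjamini-Hochberg over all genes tested) below 0.05.

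The targeted gene was checked first. Mean Lck levels were 15.08, 15.16, 14.72 and 15.17 in the WT extracts against 14.18, 14.36, 14.04 and 14.14 in the Lck-/- ones, so Lck fell by 0.85 (SE 0.14, limma adjusted p = 0.00314). The groups did not overlap, but the probe stayed well above background in the Lck-/- extracts, and whether it lies in the deleted part is not known. All 9 T cell markers were above background on all 16 arrays, among which Cd5 fell by 0.63 (limma adjusted p = 0.0158) and Thy1 rose by 0.44 (limma adjusted p = 0.0355). Cd68, a macrophage marker, fell by 0.78 (SE 0.13, limma adjusted p = 0.00367), the other macrophage markers tested, Csf1r and Itgam, were not called, and no NK or stromal marker was bright enough to test. Single markers of other cells were bright and not called, namely Cd79b of B cells (0.16), Siglech of plasmacytoid dendritic cells (0.12), and Kdr (0.11) and Egfl7 (-0.34) of endothelial cells. The part of these other cells in the GIMAP values was not tested. The dye-swapped arrays of WT replicates 1 and 2 disagreed with their own partners (across 8265 genes, r of -0.83 and -0.81 between deviations from the genotype's mean). Each swapped array correlated instead with the forward array of the other extract (0.867 and 0.938), while the other 6 extracts gave 0.457 to 0.846 with their own. The labelled pairing was kept, and values that depend on it are also given crossed, meaning forward array 1 with swap 2, which share slide 1, and forward 2 with swap 1, which share slide 2. For these extracts crossing is therefore the same split as slide, and the slide and the pairing cannot be told apart in them, while the other 6 extracts also had an array on each slide.

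Per the file headers, the GIMAP probes lie on chromosome 6 of mm9, from Gimap8 at chr6:48610775-48610834 to Gimap3 at chr6:48714463-48714522. No annotation of that build was used here, so exons and UTRs are not assigned. Since the genes are related, the 60-base probes were compared with each other. The longest identical run between probes of different members was 9 bases, and no other array probe shared a run of 20 bases with any of them. Across 42 probe pairs, the closest ungapped match joined a second Gimap4 probe (A_55_P1976387, chr6:48640752-48640811) and the Gimap9 probe (A_51_P377948, chr6:48627839-48627898), with 27 of 45 aligned bases the same. The match between Gimap7 (A_51_P448147, chr6:48674271-48674330) and Gimap9 came next, with 30 of 53. These sequences are shown because Gimap4, Gimap7 and Gimap9 carry the widest differences between arrays described below, and because the 3 Gimap4 probes disagreed. Capitals mark the bases shared by the Gimap4 and Gimap9 probes, and the others are in lower case.
Gimap4, second probe: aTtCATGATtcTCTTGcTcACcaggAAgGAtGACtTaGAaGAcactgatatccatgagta
Gimap9: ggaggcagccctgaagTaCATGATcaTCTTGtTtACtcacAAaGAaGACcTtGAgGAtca
Gimap7: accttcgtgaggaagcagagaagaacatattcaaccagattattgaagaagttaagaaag
Gimap4, brightest probe: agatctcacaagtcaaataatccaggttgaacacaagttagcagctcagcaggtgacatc

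GIMAP mRNAs stayed easy to detect in both genotypes. Of the 8 genes, 6 were well above background in both channels on all 16 arrays, Gimap5 on 15 in each channel and Gimap7 on 15 in the sub-polysomal channel, so all 8 were tested. In the mean of both fractions 0 of 8 rose and 0 fell, against 21.4% of all 9075 genes called, and 0 of 8 had groups without overlap, against 26.4% of genes. By unadjusted limma p below 0.05, 3 of 8 differed, beside 37.1% of all genes. The differences ran from -0.47 for Gimap7 to 0.55 for Gimap8, with a median of 0.09, beside a median of 0.04 over all genes. For 7 of the 8 genes the 95% confidence interval of the difference stayed within 1 log2 unit either way, the exception being Gimap8. Both directions were present among the members.

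Gimap8, the largest protein of the family and one with repeated GTP-binding domains, had the highest difference. Its mean level was 10.75, 11.33, 10.97 and 11.29 in WT replicates 1 to 4 and 10.96, 11.75, 11.73 and 12.09 in Lck-/- replicates 1 to 4. Lck-/- replicates 2 to 4 lay above every WT extract and replicate 1 lay among them. The difference was 0.55 (SE 0.23, 95% interval 0.05 to 1.05, limma adjusted p = 0.107). Without Lck-/- replicate 1 it was 0.77 (limma adjusted p = 0.0133), in a fit where 14.2% of all genes rose. The fits that each left out another extract did not call Gimap8 in the mean. In the separate pools, with all extracts, the difference was 0.58 (SE 0.25) in the polysomal and 0.52 (SE 0.23) in the sub-polysomal level.

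Gimap3, a mouse gene close to Gimap5 whose protein is found at mitochondria, was next. Its mean level was 12.94, 13.09, 12.48 and 12.83 in WT and 13.05, 13.41, 13.16 and 13.27 in Lck-/- extracts. The groups overlapped only through WT replicate 2, which lay above Lck-/- replicate 1. The difference was 0.39 (SE 0.15, limma adjusted p = 0.0895). WT replicate 3 had the lowest value in the group, and its polysomal level of 12.07 stood apart from the other WT extracts at 12.75 to 12.84.

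Gimap7, a GTPase whose activity depends on the pairing of its GTP-binding domains, was lower in Lck-/- extracts. Its sub-polysomal level was 8.69, 8.92, 8.73 and 8.63 in WT and 7.94, 8.43, 8.25 and 8.46 in Lck-/- extracts. All 4 Lck-/- extracts lay under all 4 WT extracts. The value of WT replicate 2 includes its forward array, on which this signal was not well above background. The sub-polysomal level fell by 0.47 (SE 0.15, 95% interval -0.80 to -0.15, limma adjusted p = 0.0442), the 1 call among the 8 genes in that pool, where 20.3% of 9705 genes were called in either direction, 10.8% fell, and 26.1% had groups without overlap. This call lay close to the threshold. It held in 1 of the 8 fits that each left out a single extract, the one without Lck-/- replicate 2, and limma adjusted p in the other 7 was 0.0532 to 0.119. With the crossed dye swaps it was 0.193. On slide 1 alone the difference was -0.77 (limma adjusted p = 0.0298) and on slide 2 alone -0.18 (limma adjusted p = 0.625).

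The Gimap7 difference was of like size in the mean of both fractions, -0.47 (SE 0.18, limma adjusted p = 0.0788), and in the polysomal level, -0.46 (SE 0.24, limma adjusted p = 0.207). Without WT replicate 4, its mean difference was -0.58 (limma adjusted p = 0.0464), in a fit where 9.07% of all genes fell. The fits that each left out another extract did not call Gimap7 in the mean. WT replicate 4 had the lowest mean level of the WT group, 8.41, beside 8.77, 9.01 and 8.85. The Lck-/- extracts were at 7.90, 8.28, 8.41 and 8.59.

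Gimap4, a member linked to lymphocyte death and cytokine release, had mean levels of 11.75, 11.77, 11.90 and 11.93 in WT and 11.21, 12.10, 11.45 and 11.28 in Lck-/- extracts. Lck-/- replicate 2 was above every WT extract, and the other 3 were below all of them. The difference was -0.33 (SE 0.18, limma adjusted p = 0.220). Without Lck-/- replicate 2 it was -0.53 (limma adjusted p = 0.0177) in the mean and -0.70 (limma adjusted p = 0.0142) in the sub-polysomal level, against -0.48 (limma adjusted p = 0.129) with all extracts. In those fits 12.1% of all genes fell in the mean and 11.7% in the sub-polysomal level. The fits that each left out another extract did not call Gimap4 in either. The 3 Gimap4 probes did not give the same difference. It was -0.33 at the brightest probe, -0.03 at a probe matched to the same transcript, and 0.51 at the second probe shown above, which the array design assigns to another Gimap4 transcript.

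Gimap5, which keeps naive T cells alive, had a WT group split by a single spot. Its mean level was 8.47, 10.36, 10.67 and 10.54 in WT, and 10.12, 10.10, 10.10 and 10.07 in Lck-/- extracts. WT replicate 1 was far below all other extracts, and its dye-swap array gave a spot of 60.5 in Cy5 and 294 in Cy3 before background correction, while the 15 other arrays ranged from 1032 to 6575 in Cy5 and 587 to 2429 in Cy3. The spot was not marked as an outlier by the scanner software. With it, the difference was 0.09 (SE 0.39, limma adjusted p = 0.894). Without it, as an alternative chosen after seeing the data, the difference was -0.36 (SE 0.12, limma adjusted p = 0.0598), of the opposite sign and again not called.

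The remaining genes differed little between genotypes. Gimap1, needed for mature B and T cells, had WT levels of 11.63 ± 0.07 and Lck-/- levels of 11.66 ± 0.33 (SD, n = 4 each), a difference of 0.03 with an interval of -0.32 to 0.39. Gimap6, which binds a GABARAP-type protein of autophagy, had 13.39 ± 0.16 and 13.56 ± 0.20 (SD, n = 4 each), a difference of 0.17 with an interval of -0.14 to 0.48. Gimap9, one of the less studied members, had 10.34 ± 0.13 and 10.44 ± 0.26 (SD, n = 4 each), a difference of 0.09 with an interval of -0.24 to 0.42. These intervals do not exclude changes of the sizes they span. In the polysomal level 0 of the 8 family members rose and 0 fell, against 15.2% of 10294 genes called, 0 had groups without overlap, against 23% of genes, and 1, Gimap8, had an unadjusted p below 0.05, beside 31.6% of genes.

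**Figure D1:**
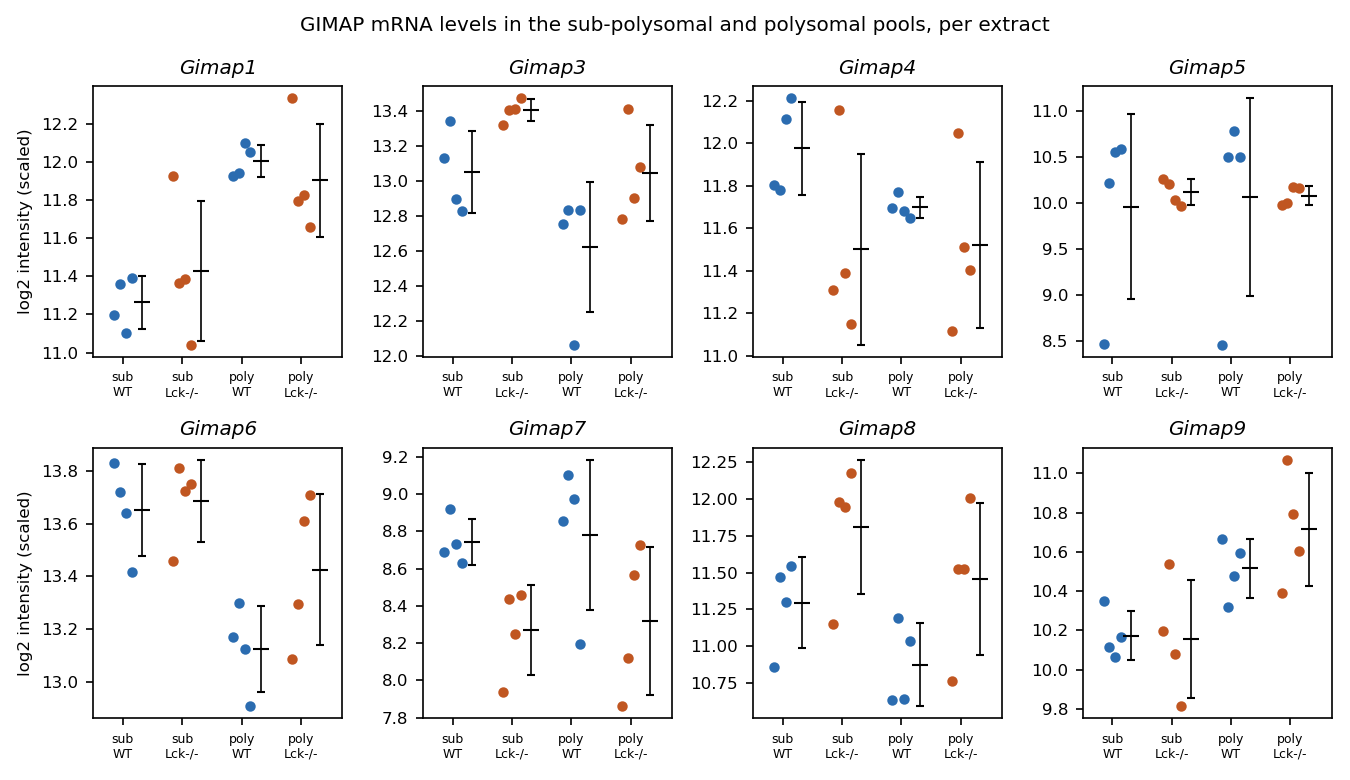
Log2 scaled intensity of each GIMAP gene (1 panel a gene, own axis) in the sub-polysomal and polysomal pools of the 4 WT (blue) and 4 Lck-/- (orange) extracts, each point the average of 2 dye-swapped arrays, with the mean and SD as a black bar. Sub-polysomal Gimap7 is the panel pair without overlap, and WT replicate 1 of Gimap5 sits at 8.47 in both pools.

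**Figure D2:**
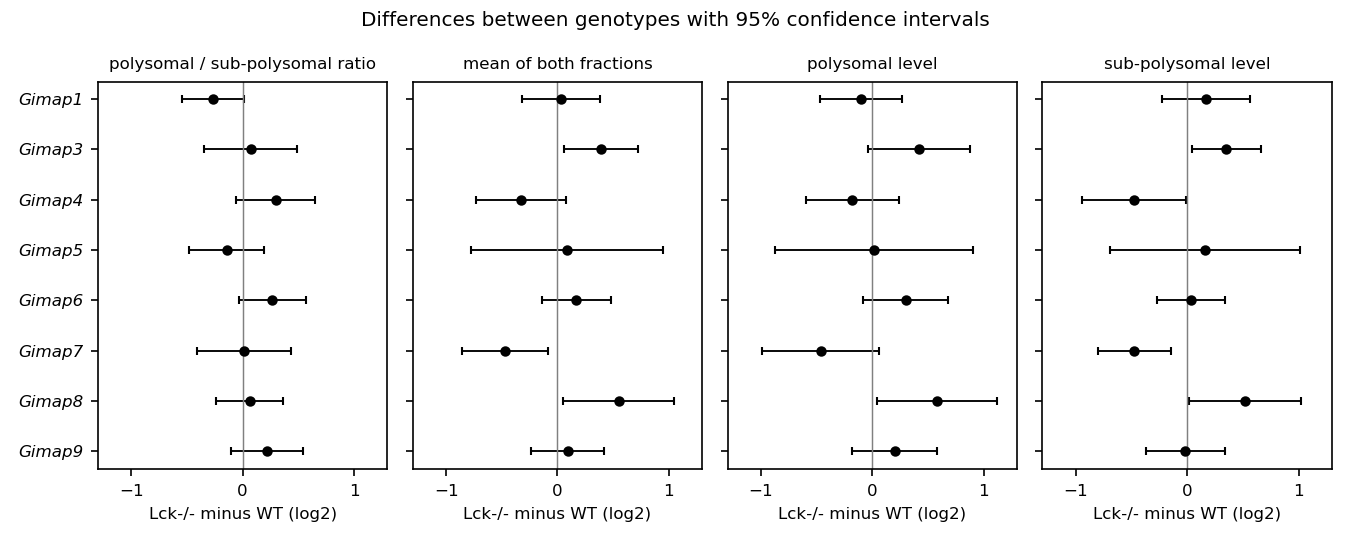
Difference between Lck-/- and WT extracts (log2) for each GIMAP gene in the ratio, the mean of both fractions and both pools, with unadjusted 95% confidence intervals from limma, n = 4 extracts a genotype. Gimap8 and Gimap3 lie to the right and Gimap7 and Gimap4 to the left in all 3 level panels, and Gimap5 has the widest intervals there.

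In polysome loading the GIMAP genes lay on both sides of the average of genes of like brightness. In WT extracts the ratio was above that average for Gimap1 and Gimap9 and below it for Gimap3, Gimap6 and Gimap8. The same 5 genes were called on the same sides in Lck-/- extracts. Over all 8265 genes, 33.5% were called above and 28.8% below in WT, and 26.9% and 29.2% in Lck-/-, so calls of this kind were common. Because loess sets the average at each brightness to 0, these are positions relative to genes of like brightness within an array. Without that normalization all 8 ratios were called above 0 in WT, as were 90% of all genes.

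Gimap1 had the highest ratio of the 8 genes in WT. It was 0.73, 0.58, 1.00 and 0.66 in WT (mean 0.74, limma adjusted p = 5.64e-05 against 0) and 0.41, 0.43, 0.44 and 0.62 in Lck-/- extracts (mean 0.47, limma adjusted p = 0.00134). All 8 extracts were above 0, and the groups overlapped only through Lck-/- replicate 4. The call held in all 28 alternatives run for each genotype, but some of these could hardly change it. With median centring, no normalization or the authors' ratios, 80.8 to 94.7% of all genes were called above 0 in WT. In Lck-/- these shares were 25.3 to 56.8%. Leaving out an extract of the other genotype, or the dim Gimap5 spot described above, does not move the mean of Gimap1.

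Gimap9 was on the same side. Its ratio was 0.32, 0.20, 0.41 and 0.43 in WT (mean 0.34, limma adjusted p = 0.0139) and 0.20, 0.53, 0.72 and 0.79 in Lck-/- extracts (mean 0.56, limma adjusted p = 0.00121). All extracts were above 0 here too with the labelled pairing, but crossed, forward array 1 with swap 2 in WT was at -0.31. The WT call was lost without WT replicate 3 (0.32, limma adjusted p = 0.0537) and without WT replicate 4 (0.31, limma adjusted p = 0.0508). It was also lost with the crossed dye swaps (limma adjusted p = 0.133) and without WT replicates 1 and 2 (limma adjusted p = 0.0652). On slide 1 alone the WT ratio was 0.05 (limma adjusted p = 0.827). Neither dye orientation alone kept the call (limma adjusted p = 0.0750 with polysomal RNA in Cy5, 0.289 in Cy3). The WT call held in 20 of 28 alternatives, and the Lck-/- call in 27.

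Gimap6 lay lowest in WT, with ratios of -0.66, -0.42, -0.52 and -0.51 (mean -0.53, limma adjusted p = 0.000771). In Lck-/- extracts it was -0.37, -0.52, -0.12 and -0.04 (mean -0.26, limma adjusted p = 0.0381). Every extract was below 0, with Lck-/- replicates 3 and 4 nearest to it. Over all 28 alternatives, the WT call held in 24 and the Lck-/- call in 8. The Lck-/- call was lost in 6 of the 8 fits without a single extract (limma adjusted p 0.0512 to 0.157), the fits without WT replicate 4 and without Lck-/- replicate 4 keeping it, and was 0.149 with the crossed dye swaps.

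Gimap8 had ratios of -0.23, -0.28, -0.66 and -0.51 in WT (mean -0.42, limma adjusted p = 0.00295) and -0.39, -0.45, -0.42 and -0.17 in Lck-/- extracts (mean -0.36, limma adjusted p = 0.00888). Its calls held in all 8 fits that left out an extract, in both genotypes, though an extract of the other genotype does not move the mean. Over all 28 alternatives each call held in 23. With polysomal RNA in Cy5 alone both were lost (limma adjusted p = 0.130 in WT and 0.200 in Lck-/-). On slide 1 alone they were lost too (limma adjusted p = 0.0705 and 0.0543). The other losses came with median centring, no normalization and the authors' deposited ratios. Gimap3 had -0.38, -0.51, -0.83 and 0.00 in WT (mean -0.43, limma adjusted p = 0.0160) and -0.54, 0.01, -0.51 and -0.39 in Lck-/- extracts (mean -0.36, limma adjusted p = 0.0403). In each genotype a single Gimap3 extract was at about 0. Over all 28 alternatives, its WT call held in 20 and its Lck-/- call in 11. The WT call of Gimap3 was lost without WT replicate 2 (limma adjusted p = 0.0596) or WT replicate 3 (limma adjusted p = 0.0940), and its Lck-/- call in 5 of 8 such fits (without Lck-/- replicate 1, 3 or 4 or WT replicate 1 or 2, limma adjusted p 0.0553 to 0.142) and with the crossed dye swaps (limma adjusted p = 0.0884). Gimap4, at -0.28 in WT (limma adjusted p = 0.0511) and 0.02 in Lck-/-, Gimap5, at 0.10 and -0.04, and Gimap7, at 0.04 and 0.05, were not called in either genotype.

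No GIMAP ratio differed between genotypes by the adjusted test. The count was 0 of 8 higher and 0 lower, 0 with an unadjusted limma p below 0.05, and 0 without overlap of the extracts, against 3.87% of 8265 genes called, 20.8% with such an unadjusted p and 14.5% without overlap. At the brightest probes the differences ran from -0.27 for Gimap1 (SE 0.13, 95% interval -0.55 to 0.01, limma adjusted p = 0.260) to 0.30 for Gimap4 (SE 0.16, limma adjusted p = 0.321), and all 8 intervals stayed within 1 log2 unit. At the second Gimap4 probe shown above, the ratio difference was 0.56 (0.11 in WT and 0.67 in Lck-/-). At the remaining Gimap4 probe it was 0.09, and neither probe was tested alone. Gimap6 had 0.27 (SE 0.14, limma adjusted p = 0.295) and Gimap9 0.22 (SE 0.15, limma adjusted p = 0.439). The median was 0.07, beside -0.04 over all genes.

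That comparison depends on how arrays were centred. Without normalization within arrays, the median ratio of the 8 genes averaged 1.25 over WT and 0.53 over Lck-/- extracts, and the median ratio of all tested genes fell from 1.34 ± 0.30 to 0.52 ± 0.26 (SD, n = 4), a difference of -0.82 (exact permutation p = 0.0286, two-sided, the smallest that 70 arrangements can give). On that scale each GIMAP ratio was lower in Lck-/- extracts, from -0.49 for Gimap7 to -1.20 for Gimap1, and 7 of 8 were called, as were 71.9% of all genes in that direction. In the authors' deposited table, which shares this shift (median over all genes -1.15), all 8 were lower, from -0.88 for Gimap7 to -1.53 for Gimap1, and all 8 were called, as were 90% of all genes in that direction. Its knockout columns are named OFF, and they were taken as the Lck-/- group because the series title sets that word beside Lck-/-. With the columns of that table centred, 0 of 8 were called, against 5.42% of all genes called higher and 3.51% lower. With each array of this report set to a median of 0 whatever the brightness, the median difference over tested genes was still -0.78. Dim and bright spots therefore did not shift alike. A fixed volume of each pool was labelled. Any part of the shift common to all genes therefore cannot be told apart from the amount of RNA in that volume.

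**Figure D3:**
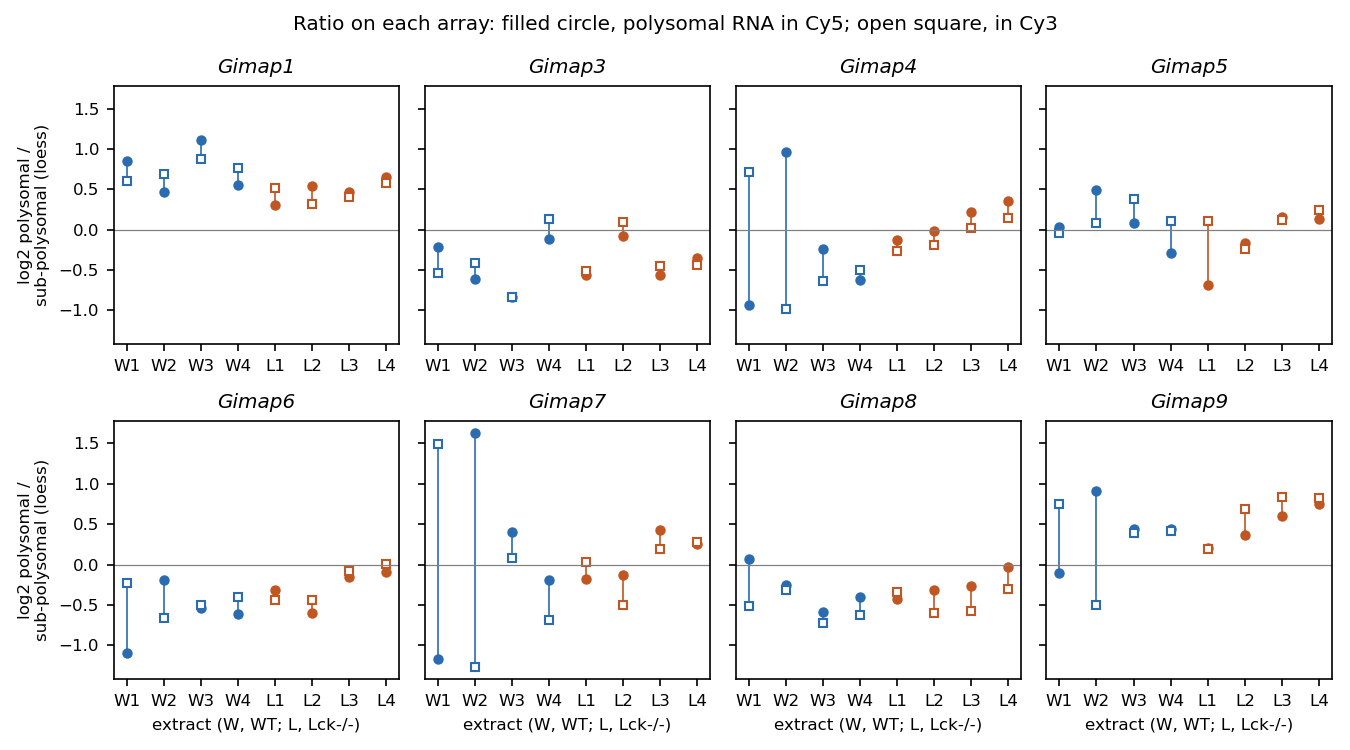
Loess-normalized log2 ratio of polysomal over sub-polysomal signal for each GIMAP gene on each of the 16 arrays, joined by extract (W, WT; L, Lck-/-; 1 to 4, replicate). Filled circles have polysomal RNA in Cy5 and open squares in Cy3. Gimap4, Gimap7 and Gimap9 have their long bars in WT replicates 1 and 2, where Gimap7 runs from -1.27 to 1.63.

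On single arrays Gimap7, and less so Gimap4, separated in a way that the extract averages hide. For Gimap7 the forward and swapped arrays gave -1.17 and 1.49 in WT replicate 1, and 1.63 and -1.27 in WT replicate 2. The arrays of an extract thus disagreed by 2.66 and 2.91, while the gap in the other 6 extracts was 0.02 to 0.50. The array at 1.63 is the one whose sub-polysomal Gimap7 signal was not well above background. Crossed, the values became -1.22 and 1.56, each pair of arrays within 0.14, and the SD over WT extracts rose from 0.32 to 1.18. For Gimap4 the arrays of WT replicates 1 and 2 were 1.64 and 1.94 apart, against at most 0.40 elsewhere, and the crossed values were -0.95 and 0.84. Gimap9 had crossed values of -0.31 and 0.83, and Gimap6 -0.87 and -0.21.

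The other 4 genes separated these arrays less than the median gene did. Their crossed pairs differed by -0.23 for Gimap1, -0.26 for Gimap3, 0.17 for Gimap5 and -0.26 for Gimap8, under the median absolute difference of 0.579 over 8265 genes. Gimap4, Gimap6, Gimap7 and Gimap9 lay above that median, so the family as a whole did not stand out. A difference as large as that of Gimap7, 2.78, was reached by 1.71% of genes, as large as that of Gimap4, 1.79, by 6.63%, as large as that of Gimap9, 1.14, by 20.4%, and as large as that of Gimap6, 0.67, by 43.8%. These are descriptions of 4 arrays. Which pairing holds was not tested by any other measure.

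The correlation of levels between GIMAP genes varied widely. Over 16 values (2 pools in each of 8 extracts, which share extracts and arrays), the correlation between members ran from -0.83, between Gimap1 and Gimap6, to 0.694, between Gimap3 and Gimap8, with a median of -0.08 over 28 pairs. Both pools of an extract enter these values, so members with ratios on the same side of 0 correlate positively, and on opposite sides negatively, by construction. Outside the family, the genes most like the family's mean profile among 8603 ranked were Myo19, an unconventional myosin (r = 0.825), Scoc, a Golgi coiled-coil protein (r = 0.819), Ddx58, the RNA sensor RIG-I (r = 0.808), Jmjd1c (r = 0.803) and Stx12, an endosomal syntaxin (r = 0.789). The members' own r with that profile ran from -0.34 (Gimap1) to 0.66 (Gimap8). The 5 genes were picked as the highest of 8603, so their higher r comes with that choice and was not tested. The dim Gimap5 spot described above also enters the profile. None of these 5 genes was called in the mean of both fractions, with differences of at most 0.40 in size.

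Genes next to the cluster gave a local comparison. Within 500 kb on either side, 21 other genes had probes, and 7 were bright enough to test in the mean of both fractions. Of these, 2 rose and 0 fell, beside 10.2% and 11.2% of all 9075 genes. Tmem176b, a membrane protein gene and the nearest one tested beyond Gimap3, 69.37 kb from the family's last probe, rose by 0.87 (SE 0.17, limma adjusted p = 0.00651). Tra2a, a splicing regulator gene 479.5 kb away, rose by 0.41 (SE 0.12, limma adjusted p = 0.0350). On the other side, AI854703 at 27.14 kb had a difference of 0.02 (SE 0.21, limma adjusted p = 0.942), and Repin1 at 61.75 kb one of 0.30 (SE 0.12, limma adjusted p = 0.0879).

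In the RefSeq promoters (GRCm38.p6, 250 bases before to 50 after the start), all 8 genes were matched, with 9 promoters. Searched on both strands, the forkhead word TGTTTAC was in 1 of the 9, that of Gimap3, and in 3.65% of all 32851 promoters. The RUNX word TGTGGTT, the ETS word CCGGAAG and the KLF word CCGCCCC were in 0 of the 9, and in 5.27%, 8.86% and 23.2% of all promoters. No match says only that these letters are not in these windows.

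Genes that work in the same processes gave a frame for the GIMAP values in the mean of both fractions. Over all 9075 genes in this comparison, 10.2% rose and 11.2% fell, with a median of 0.04. Of 16 naive and quiescent T cell genes, all tested, 6 rose and 0 fell, with a median of 0.47. Klf2, which maintains T cell quiescence and trafficking, rose by 1.16 (SE 0.25, limma adjusted p = 0.00922). Tcf7, the factor TCF1 of naive and memory cells, rose by 1.11 (SE 0.17, limma adjusted p = 0.00208), and Foxp1, a factor of quiescence, by 0.56 (SE 0.12, limma adjusted p = 0.00920). The others called were Btg1, Klf3 and Slfn2. Il7r, the interleukin-7 receptor, had -0.31 (SE 0.19) and was not called.

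Of 11 Bcl2 family genes tested, whose products set the threshold of apoptosis and have been reported to bind GIMAP proteins, 1 rose and 0 fell. This was Bcl2l1, coding for the survival protein Bcl-xL, with 0.73 (SE 0.17, limma adjusted p = 0.0130). Mcl1 had 0.33 (SE 0.12, limma adjusted p = 0.0654) and Bak1 0.27 (SE 0.12, limma adjusted p = 0.137). Of 14 autophagy and GABARAP genes tested, Atg7 rose by 0.38 (SE 0.12, limma adjusted p = 0.0466) and Map1lc3b, an LC3 gene, fell by 0.88 (SE 0.21, limma adjusted p = 0.0167). Of 12 other immune GTPases tested, Gbp4 rose by 0.53 (SE 0.16, limma adjusted p = 0.0339). Of 6 GSK3 and NFAT genes, Nfatc1 rose by 0.62 (SE 0.19, limma adjusted p = 0.0383), and Gsk3b had 0.50 (SE 0.17, limma adjusted p = 0.0532). These counts stand beside 10.2% of all 9075 genes that rose and 11.2% that fell. The GIMAP count of 0 of 8 and the counts of the lists were not tested against each other.

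**Figure D4:**
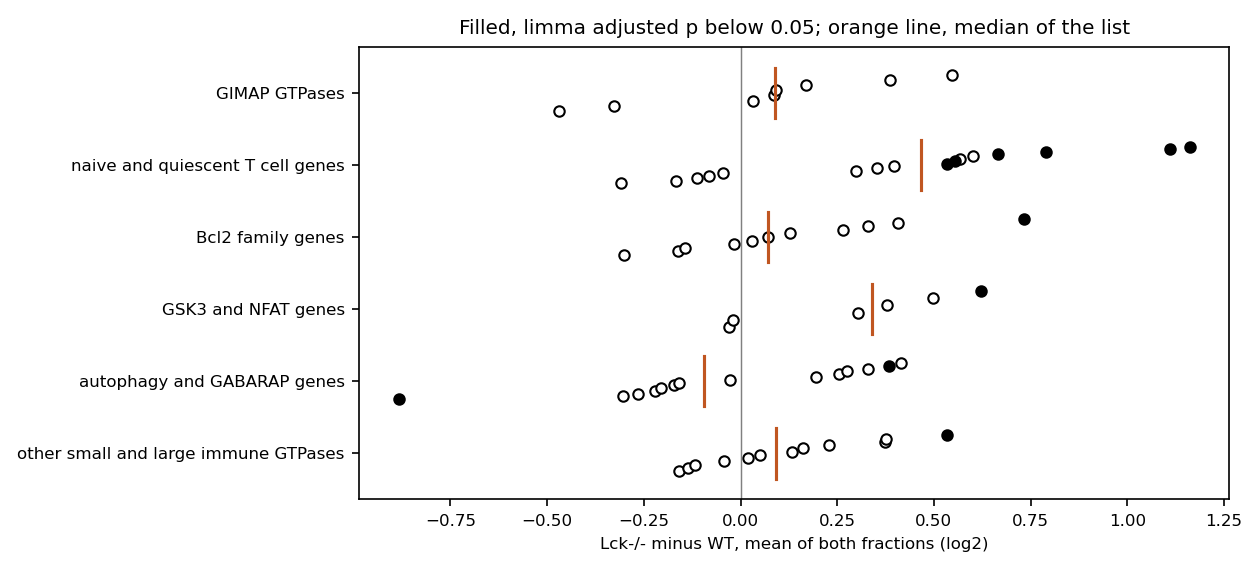
Difference between Lck-/- and WT extracts in the mean of both fractions (log2, n = 4 extracts a genotype) for the GIMAP genes and the 5 other lists, 1 point a gene. Filled points passed limma's adjusted p of 0.05 and the orange line is the list's median, 0.09 for the GIMAP genes and 0.47 for the naive and quiescent T cell genes.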

How the data were processed

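Per the file headers, the authors' scanner files hold spot and background intensity from Agilent Feature Extraction 10.7.3.1, with probe positions on mm9 and flags (other values) for signal above background. The authors' deposited table holds a log2 ratio per probe. The submitters' processing notes name limma, and other steps are not given in the sources used here. From mean signals, normexp (offset 50) and loess (control spots at weight 0) were run in limma 3.58.1 under R 4.3.3, with Aquantile scaling for levels. Dye swaps were averaged per extract. A gene was tested in the levels or their mean if well above background on at least 6 of 8 arrays of either genotype. The ratio required this in each genotype. The ratio and the mean required it in both channels. Tests used lmFit and eBayes. Of 55681 probes, 31399 were named, 27325 by accession, 3523 by symbol and 551 by synonym. On simulated data with 200 genes changed by 1 log2 unit, 83.5% were recovered in the ratio (8265 genes), 85.5% in the mean (9075), 65.5% in the polysomal (10294) and 77.5% in the sub-polysomal level (9705). Named genes were the 8 members, Lck, the 3 of smallest p per list, the 5 most like the family's mean profile and neighbours within 500 kb; other genes named were chosen after their values were seen. The members, lists and the crossing of dye swaps were chosen with earlier results of these data known. The number of arrays limits precision. Alternatives are in the closing section. Some genes of the lists are not reported here by name.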

Additional observations from a re-analysis of the deposited data

Results flagged for a closer look

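In 5 of the 64 groups of 4 extracts, a single extract stood apart from the others by Dixon's test at its 95% critical value. Chance alone marks about 1 group in 20. For Gimap5, WT replicate 1 had a mean level of 8.47 and a polysomal level of 8.47, both set by the single dim spot of its dye-swap array. For Gimap3, WT replicate 3 had a polysomal level of 12.07. For Gimap7, WT replicate 4 had a ratio of -0.44, while the other WT replicates had 0.16 to 0.24, and 2 of these are averages of arrays that disagreed. For Gimap1, Lck-/- replicate 4 had a ratio of 0.62, beside 0.41 to 0.44.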

How the results depend on the processing

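With the settings of the report, 0 of the 8 GIMAP genes were called in the ratio, the mean and the polysomal level, 1 fell in the sub-polysomal level, and 5 ratios were called against 0 in each genotype (2 above, 3 below). Over 1309 gene values in 30 settings, 1117 kept their direction and side of the threshold or moved by less than the spread, 36 moved, 73 lost a call, 49 gained one and 34 reversed. Among those that were the same or moved, 92 uncalled values changed sign. Leaving out 1 extract at a time gave 0 calls in the ratio each time, 0 to 1 in the mean, 0 to 1 in the polysomal level, 0 to 2 in the sub-polysomal level, 3 to 6 for the ratio against 0 in WT and 3 to 5 in Lck-/-. Over all genes in these fits, 1.13 to 3.47% rose and 0.0726 to 1.9% fell in the ratio, and 3.88 to 14.2% and 7.25 to 12.1% in the mean. In the polysomal level 1.59 to 13.1% rose and 5.07 to 11.2% fell, and in the sub-polysomal level 4.25 to 9.76% and 6.7 to 11.7%. Against 0, 29.3 to 36.5% were above and 25.1 to 30.8% below in WT, and 21.3 to 32.3% and 23.6 to 30.1% in Lck-/-. The cause of these changes was not tested, except that fewer extracts or arrays enter some fits.

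Centring changed the calls in the ratio. With median centring, 5 of 8 ratios were called lower in Lck-/- extracts (56.3% of all genes), including Gimap3 (-0.97), Gimap6 (-0.77) and Gimap8 (-0.82), all 8 were above 0 in WT (80.8% of all genes), including Gimap3 (0.74), Gimap4 (0.90), Gimap6 (0.62) and Gimap8 (0.74), and 2 were called in Lck-/- (25.3%). In the same setting 1 gene fell in the polysomal level (20.9% of all genes) and 3 rose in the sub-polysomal level (36.8%). With no normalization within arrays, 7 were lower (71.9% of all genes), including Gimap3 (-0.97), Gimap4 (-0.63), Gimap6 (-0.78), Gimap8 (-0.83) and Gimap9 (-0.59). All 8 were above 0 in WT (90% of all genes), including Gimap3 (1.02), Gimap4 (1.18), Gimap6 (0.90) and Gimap8 (1.02). In Lck-/- 5 were (56.7%), where Gimap5 became 0.55 and, no longer called, Gimap3 0.050, Gimap6 0.12 and Gimap8 0.19. In the authors' deposited ratios, all 8 were lower (90%), including Gimap3 (-1.33), Gimap4 (-0.94), Gimap6 (-1.12), Gimap7 (-0.88), Gimap8 (-1.13) and Gimap9 (-0.96). There, 8 were above 0 in WT (94.7% of all genes), including Gimap3 (1.40), Gimap4 (1.54), Gimap6 (1.26) and Gimap8 (1.36). In Lck-/- 5 were (56.8%), where Gimap5 was 0.65 and, not called, Gimap3 0.072, Gimap6 0.14 and Gimap8 0.23. These settings moved the median over all genes in the ratio from -0.04 to -0.78, -0.78 and -1.15. Median centring, unlike loess, does not correct by brightness, and the median tested gene was then at 1.05 in WT and 0.23 in Lck-/- extracts.

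The sub-polysomal count went from 1 to 0 with Agilent's processed signals, no scaling between arrays, no filter on dim probes, detection on all 16 arrays (6 genes tested, Gimap7 not among them), either dye orientation alone, slide 2 alone, the replicate block, the crossed dye swaps (also without the dim Gimap5 spot) and without WT replicates 1 and 2. Over all genes 0.455 to 12% rose and 1.38 to 10.9% fell in these settings. The count was 1, Gimap3 rising, with quantile normalization (12% of all genes rose) and with slide and dye terms (11% rose). It was 2, both falling, on slide 1 alone (12.9% fell) and 3 with array weights (30.4% rose and 24.6% fell). The mean gave 1 call (Gimap8) with the replicate block, 2 with slide and dye terms and 3 with array weights, which also gave 2 in the ratio and 2 in the polysomal level. Over all genes in the mean, 7.6% rose and 9.47% fell with the replicate block, and 12.8% and 12.4% with slide and dye terms. With array weights 30.9% rose and 24.8% fell in the mean, 11.7% and 12.5% in the ratio, and 20.9% and 19.1% in the polysomal level. Same-numbered extracts did not deviate together in every pair (r of 0.056, -0.172, 0.258 and -0.242 in the ratio, and -0.066, -0.090, 0.428 and -0.204 in the mean, where replicate 3 alone matched its own number best in both), so the numbers were not taken to pair extracts.

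Against 0, WT gave 3 calls with either dye orientation alone or slide 1 alone, and 4 with the crossed dye swaps (also without the dim Gimap5 spot) or without WT replicates 1 and 2. WT gave 6 with Agilent's processed signals, offset 16, detection on all 16 arrays (where only 6 genes were tested) and without Lck-/- replicate 1, each with Gimap4 called below 0. Over all genes, 21.3 to 36.9% were called above and 15.3 to 30.8% below in WT in these settings. Lck-/- gave 3 with offset 16, no filter, polysomal RNA in Cy3 alone, slide 2 alone, the crossed dye swaps with or without the dim spot, or without WT replicates 1 and 2, 2 on slide 1 alone and 1 with polysomal RNA in Cy5 alone. Over all genes, calls in the ratio ranged from 5 (polysomal RNA in Cy3 alone) to 7452 (the authors' deposited ratios), against 320. In the mean they ranged from 826 (without WT replicates 1 and 2) to 5055 (array weights), against 1943. In the polysomal level they ranged from 85 (slide 1 alone) to 4124 (array weights), against 1566, and in the sub-polysomal level from 177 (slide 2 alone) to 5336 (array weights), against 1966. Signal over background limits Gimap7 and Gimap5 most, each with arrays not well above background.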
